A study of Mus musculus with 8 samples.

Results

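The 36 genes described here encode enzymes, carriers and regulators of fatty acid oxidation together with established targets of the nuclear receptor PPARA. They were chosen by gene symbol with earlier results of these data known, and all 36 were found among the 41128 symbols of the deposited expression table. They were read in whole-tissue sections of the distal ileum of Cftr null mice (Cftrtm1Cam, KO) and of their Cftr N/N littermates (WT), both congenic on FVB. Cftr encodes the chloride and bicarbonate channel that is lost in cystic fibrosis, and the null allele is carried by every cell of these KO mice. Untreated KO mice (n = 3) were paired with untreated WT littermates (n = 3) as couple 1 (female), couple 2 (male) and couple 3 (female). A further female couple drank water with antibiotics, namely 0.3 g of ciprofloxacin and 0.5 g of metronidazole per litre, which gave 1 antibiotic-treated KO mouse and 1 antibiotic-treated WT mouse. All 8 mice, controls included, had been raised on a low fibre diet with an osmotic laxative that was stopped more than 4 days before sampling. Both littermates of a couple had the same sex and were taken in the same 20 min, between 12 and 14 h, and their age was not given in the sources used here. Each library came from 1 mouse, and a bulk section cannot tell fewer cells of a type from less RNA per cell.

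Fatty acids that enter an enterocyte are activated to acyl-CoA, then stored in lipid droplets, exported in lipoproteins or oxidised. Mitochondria take up long-chain acyl groups through the carnitine shuttle and shorten them in repeated cycles of dehydrogenation, hydration, a second dehydrogenation and thiolysis. Peroxisomes shorten very long and branched chains by a similar cycle, and microsomal CYP4A enzymes start oxidation from the far (omega) end. PPARA binds fatty acids, pairs with RXR and occupies DNA elements made of a repeated half-site with a spacer of 1 base, and in liver and small intestine it raises transcription of many genes in all 3 routes. Acetyl-CoA that results can be turned into ketone bodies. The 36 genes hold no enzyme of ketone body synthesis, so Acat1 and Bdh1, which act in ketone body metabolism, were set beside them.

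The values are normalised expression per gene length and library (RPKM-like). Their totals lay between 346794 and 397082 per library, and the sequencing depth behind them is unknown. Couples 1 and 2, couple 3 and the antibiotic couple had been normalised as 3 separate sets. Differences within couples, and fits with the couple included, compare KO with WT inside a set. The main limma fit, its fits without 1 library and the group ranges do not, and pool couple 3 with couples 1 and 2. Cftr itself was read at 3.74, 2.65 and 3.17 in KO couples 1, 2 and 3, against 12.4, 9.94 and 10.1 in the WT littermates, and at 4.94 in the antibiotic KO mouse, against 13.8 in its WT littermate. Several marker lists moved with the genotype. All 12 villus enterocyte markers were fitted lower in KO (0 called without the couple in the fit, 7 called lower with it), and their summed level was 9005 to 16205 in untreated KO libraries, against 17178 to 23907 in untreated WT libraries. The summed level of 12 markers shared by all epithelial cells overlapped between the genotypes, at 5534 to 7256 in untreated KO libraries and 4727 to 7483 in untreated WT libraries. The 5 distal ileal enterocyte markers summed to 1064 to 2908 in untreated KO libraries, against 5741 to 7712 in untreated WT libraries (1 called lower, 3 with the couple in the fit). Of these 5 distal ileal markers, 4 were fitted lower in KO. The 6 T cell markers summed to 55.2 to 64.3 in untreated KO libraries, against 21.0 to 28.1 in untreated WT libraries (1 called higher, 3 with the couple in the fit). The 5 macrophage and dendritic cell markers summed to 123 to 214, against 70.1 to 98.6 in WT (1 called higher, 2 with the couple in the fit). Of these 5 macrophage and dendritic cell markers, however, 3 were fitted lower in KO and the median log2 change was -0.03. Most of that list thus did not share the higher sum. The 5 endothelial markers summed to 12.3 to 22.2 in untreated KO libraries, against 22.9 to 24.5 in WT (0 called, 2 lower with the couple in the fit). The sums of crypt and cycling, Paneth and fibroblast markers overlapped. With the couple in the fit, 4 of 10 crypt and cycling markers and 2 of 6 Paneth markers were called higher. All 6 fibroblast markers were fitted lower, with 0 called. No marker of these lists was at 0 in all untreated libraries, and their part in the results below was not tested.

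Without antibiotics, the oxidation genes were lower in KO than in WT ileum in nearly every couple. Of the 35 members that could be tested, 34 were fitted below 0 and 33 were lower in the KO mouse of all 3 couples, where 32.5% of all 11717 genes tested were lower in all 3. In 24 members every KO library was below every WT library (12.1% of all genes), and in 0 members was every KO library above (10.4% of all genes). The median log2 change over the 35 was -0.69, beside -0.01 over all genes, and within couples 1, 2 and 3 it was -0.57, -0.66 and -0.77. A fall of similar size was seen over the 12 villus enterocyte markers, with a median of -0.59, and -0.63, -0.64 and -0.48 within couples 1, 2 and 3. On the log2(value + 1) scale, which understates ratios, at least 2-fold lower in KO were 8 members in couple 1 (2.46% of all genes), 11 in couple 2 (2.92%) and 12 in couple 3 (2.37%), and 0 members were at least 2-fold higher in any couple (2.75%, 2.7% and 3.73% of all genes). On 3 couples, limma called 6 members lower and 0 higher at an adjusted p under 0.05 (17.1% of the members, where 1.01% of all genes were called lower and 1.15% higher). Littermates deviated together, and with the couple as a block in the fit limma called 27 members lower (77.1%) and 0 higher, where 9.91% of all genes were called lower and 8.4% higher. All counts of members lower in KO in this paragraph include Cyp4a10. It passed the filter on low values through its WT libraries alone and so had to differ. The members were chosen with earlier results of these data known. Their shares beside those of all genes are therefore a description and not a test of the list. A gene has the same log2 change in both fits. Each SE printed here is from the fit without the block, also beside a p with it, unless stated. The 36th member, the omega-hydroxylase gene Cyp4a14, was listed at 0.346 in the KO mouse of couple 1 and at 0 in the other 7 libraries, and was not tested.

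**Figure D1:**
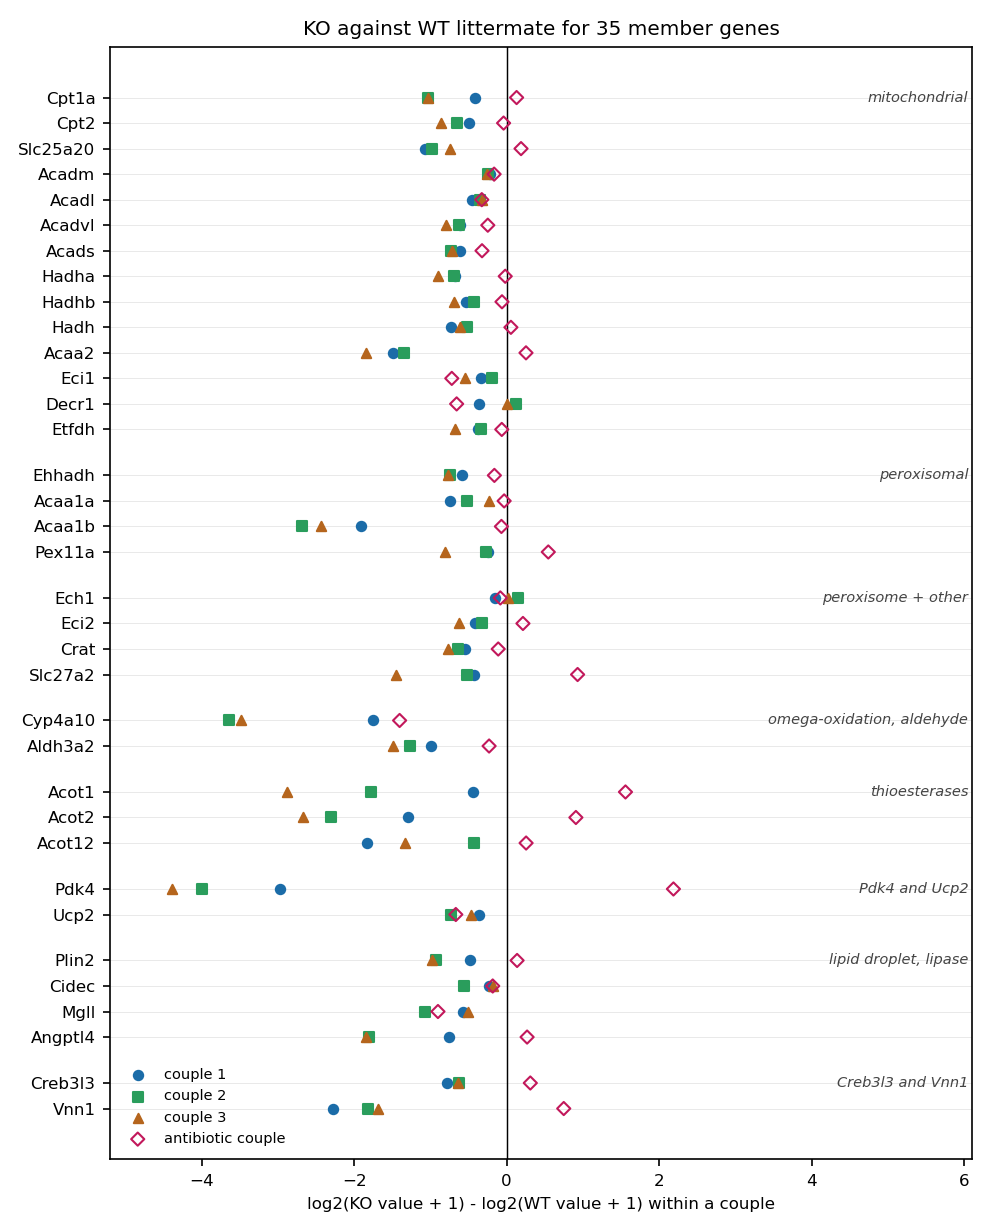
The difference log2(KO value + 1) - log2(WT value + 1) on the x axis is shown within each couple for 35 genes, grouped by role along the y axis. Filled symbols are the 3 untreated couples and open diamonds the antibiotic couple; 33 of the 35 genes have all 3 filled symbols left of 0, and 15 have the open diamond right of 0.

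The repeat that PPARA and RXR bind can be searched for in promoter sequence, and the 4 members whose promoter came closest to it are shown here with their surroundings. RefSeq start sites on GRCm38.p6 gave a window from 250 bases before to 50 bases after the start for 29 of the 36 members. The motif searched was AGGTCANAGGTCA on both strands with at most 2 mismatches at its 12 fixed bases. A match was present for 4 of the 29 members (13.8%), against 1190 of all 27025 genes with a window (4.40%), and 13 of all 32851 windows held a match without mismatch. The matches are in capitals, each on the strand of its gene, and those of Acot12 and Plin2 read on the opposite strand. The match of Acot12, a cytosolic acetyl-CoA thioesterase, had 1 mismatch and began 110 bases before the start. The other 3 had 2 mismatches and began 209 bases before the start in Creb3l3, a transcription factor of lipid metabolism, 225 before it in the lipid droplet coat gene Plin2, and 6 after it in the carnitine carrier gene Slc25a20. A match is a description of these letters and not a binding site.
Acot12, chr13:91741386-91741448, plus strand: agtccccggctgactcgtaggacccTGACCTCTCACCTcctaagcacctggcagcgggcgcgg
Creb3l3, chr10:81092763-81092825, minus strand: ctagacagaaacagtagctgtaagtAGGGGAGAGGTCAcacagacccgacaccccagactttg
Plin2, chr4:86670247-86670309, minus strand: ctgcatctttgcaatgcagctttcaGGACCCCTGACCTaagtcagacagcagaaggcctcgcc
Slc25a20, chr9:108662117-108662165, plus strand: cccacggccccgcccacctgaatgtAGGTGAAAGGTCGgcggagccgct

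The carnitine shuttle, which carries long-chain acyl groups into mitochondria, was lower in KO in each of its 3 members. Cpt1a, the regulated outer membrane acyltransferase, was at 30.7, 24.5 and 20.7 in KO couples 1, 2 and 3, against 41.2, 51.0 and 43.4 in WT. Slc25a20, the inner membrane carrier whose promoter stretch is printed above, was at 21.9, 35.6 and 46.2 in KO, against 47.2, 71.3 and 77.7 in WT. Neither gene overlapped between the genotypes. Cpt2, the matrix acyltransferase, was at 31.8, 52.3 and 45.8 in KO, against 45.1, 83.0 and 83.8 in WT, and it was lower in each KO mouse than in its littermate although the groups overlapped. The log2 changes were -0.83 (SE 0.20) for Cpt1a, -0.93 (SE 0.31) for Slc25a20 and -0.67 (SE 0.30) for Cpt2. These 3 fell only with the couple as a block, at limma adjusted p of 0.0325, 0.0132 and 0.0220, against 0.0928, 0.199 and 0.340 without it.

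Among the 4 acyl-CoA dehydrogenases, which take the first oxidation step on chains of different length, 3 fell with the block and the medium-chain enzyme was not called. Acadvl, for very long chains, was at 38.3, 34.8 and 44.0 in KO couples 1, 2 and 3, against 59.0, 54.5 and 77.0 in WT, without overlap. Acads, for short chains, was at 19.5, 26.9 and 30.9 in KO, against 30.4, 45.3 and 51.3 in WT, with its highest KO library just above its lowest WT library. Acadl, for long chains, was at 82.4, 73.2 and 109 in KO, against 114, 93.4 and 136 in WT. The order KO below WT held in every couple for all 3 of these genes, and they fell with the couple as a block (log2 change -0.68, -0.69 and -0.38, limma adjusted p = 0.0161, 0.0138 and 0.0387). Acadm, for medium chains, was at 43.4, 43.5 and 50.1 in KO, against 50.6, 51.6 and 60.3 in WT. Its log2 change of -0.24 (SE 0.17) was not called without the block (limma adjusted p = 0.548) or with it (0.0742), although the groups did not overlap. Etfdh, the flavoprotein that passes electrons from these dehydrogenases to ubiquinone, was at 10.8, 10.3 and 9.97 in KO, against 14.4, 13.3 and 16.6 in WT. It was tightly grouped in KO and fell with the block (log2 change -0.47, SE 0.15, limma adjusted p = 0.0418).

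The later steps of the mitochondrial cycle held the member of highest mean level among the 14 genes of mitochondrial beta-oxidation and the carnitine shuttle, Acaa2, the thiolase that releases acetyl-CoA. Acaa2 was at 50.2, 42.4 and 60.0 in KO couples 1, 2 and 3, against 143, 109.7 and 218 in WT. All KO libraries were far below all WT libraries, and the gene averaged 50.9 ± 8.81 in KO and 157 ± 55.3 in WT (SD, n = 3 each). It was the only one of these 14 genes called without the block (log2 change -1.56, SE 0.28, limma adjusted p = 0.0397, and 0.00835 with the block). When 1 of the 6 libraries was left out it was called in 1 of 6 fits (limma adjusted p between 0.0369 and 0.127). The 2 subunits of the trifunctional protein, which catalyses the middle and last steps on long chains, and the short-chain hydroxyacyl-CoA dehydrogenase Hadh were lower in every couple as well. Hadha, the alpha subunit, was at 30.4, 37.1 and 36.3 in KO, against 49.3, 60.3 and 68.7 in WT. Hadhb, the beta subunit, was at 19.4, 14.5 and 21.1 in KO, against 28.5, 19.8 and 34.7 in WT, and 19.7% of its 50-base stretches also occur in other genes, so its level is uncertain. Hadh was at 49.7, 53.8 and 77.2 in KO, against 83.0, 77.7 and 118 in WT. Hadha and Hadh did not overlap between the genotypes while Hadhb did, and all 3 fell with the block (log2 change -0.75, -0.62 and -0.55, limma adjusted p = 0.0148, 0.0183 and 0.0242).

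The 2 mitochondrial enzymes needed for unsaturated chains were not called in either fit. Eci1, the mitochondrial enoyl-CoA isomerase, was at 29.9, 35.02 and 30.5 in KO couples 1, 2 and 3, against 38.2, 40.0 and 45.0 in WT, and was not called (log2 change -0.36, SE 0.16, limma adjusted p = 0.0634 with the block). Decr1, the mitochondrial dienoyl-CoA reductase, was at 19.2, 14.7 and 22.2 in KO, against 25.02, 13.4 and 22.1 in WT. The Decr1 groups lay within each other, and it was lower in the KO mouse of couple 1 only. Over these 14 members, 13 were lower in KO in all 3 couples, 1 fell without the block and 11 fell with it, and the median log2 change was -0.64.

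The peroxisomal cycle showed 1 large difference and 3 of the size seen in mitochondria. Acaa1b, a peroxisomal 3-ketoacyl-CoA thiolase of rodents (chr9:119148023-119157093, minus strand), was at 12.9, 5.88 and 18.3 in KO couples 1, 2 and 3, against 51.1, 43.1 and 104 in WT. The KO mouse was far below its littermate in each couple, with log2 differences of -1.90, -2.68 and -2.44 in couples 1, 2 and 3. The gene averaged 12.4 ± 6.25 in KO and 66.0 ± 32.9 in WT (SD, n = 3 each), and it fell (log2 change -2.34, SE 0.45, limma adjusted p = 0.0461, and 0.00714 with the block). Its paralogue Acaa1a was at 21.3, 27.3 and 43.5 in KO, against 36.3, 39.7 and 51.4 in WT, lower in every couple but with overlapping groups, and fell only with the block (log2 change -0.50, SE 0.28, limma adjusted p = 0.0494, and 0.437 without it). The 2 genes share sequence (30.5% of the 50-base stretches of Acaa1b and 12.4% of those of Acaa1a), so reads may have been divided between them and both levels are uncertain. The 250 bases before the RefSeq start of Acaa1b are shown because it is the peroxisomal member with the largest change, and the capitals mark a stretch closest to the motif, with 4 mismatches on the opposite strand.
Acaa1b, chr9:119157094-119157343, minus strand: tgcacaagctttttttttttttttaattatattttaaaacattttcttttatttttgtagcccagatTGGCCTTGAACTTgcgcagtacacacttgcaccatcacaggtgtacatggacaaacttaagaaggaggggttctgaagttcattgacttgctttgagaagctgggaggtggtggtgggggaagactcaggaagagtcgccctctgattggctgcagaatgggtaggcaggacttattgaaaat

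Ehhadh, the peroxisomal bifunctional enzyme for straight chains, was at 21.2, 20.2 and 25.8 in KO couples 1, 2 and 3, against 32.5, 34.4 and 44.9 in WT, and fell with the block without any overlap (log2 change -0.70, SE 0.19, limma adjusted p = 0.0148). Pex11a, which takes part in peroxisome proliferation, was at 14.0, 14.8 and 16.2 in KO, against 16.8, 18.0 and 29.2 in WT. Its groups did not overlap, but the difference was largest in couple 3 and was not called (log2 change -0.44, SE 0.23, limma adjusted p = 0.0872 with the block). All 4 peroxisomal members were lower in KO in all 3 couples, 1 fell without the block and 3 fell with it, and their median log2 change was -0.60.

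Of the 4 members found in peroxisomes and in another compartment, the carnitine acetyltransferase and an isomerase fell with the block, and the gene of highest mean level was not called. Crat, which exchanges acetyl groups between CoA and carnitine, was at 13.6, 19.9 and 17.9 in KO couples 1, 2 and 3, against 20.4, 31.3 and 31.3 in WT (log2 change -0.65, SE 0.23, limma adjusted p = 0.0169 with the block). Eci2, an enoyl-CoA isomerase of peroxisomes and mitochondria, was at 15.9, 16.3 and 15.2 in KO, against 21.5, 20.6 and 24.0 in WT (log2 change -0.46, SE 0.15, limma adjusted p = 0.0364 with the block). Both genes were separated completely between the genotypes. Slc27a2, a very-long-chain acyl-CoA synthetase and fatty acid transporter, was at 7.99, 6.69 and 4.81 in KO, against 11.1, 10.03 and 14.9 in WT, separated but not called (log2 change -0.80, limma adjusted p = 0.0705 with the block). Ech1, a dienoyl-CoA isomerase, was at 44.3, 68.4 and 65.6 in KO, against 49.2, 61.8 and 65.1 in WT, with a log2 change of 0.00 (SE 0.23) and fully overlapping groups.

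Of the 2 tested genes of the omega route, Aldh3a2 was about equal in all KO mice and lower than in WT, and Cyp4a10 was near 0 in KO. Cyp4a10, which hydroxylates fatty acids at the omega end (chr4:115518264-115533649, plus strand), was at 0.425, 0.231 and 0.154 in KO couples 1, 2 and 3, against 3.79, 14.4 and 11.9 in WT. No KO library reached 1, so the gene passed the filter on low values only through the WT libraries and had to differ. It averaged 0.270 ± 0.140 in KO and 10.02 ± 5.54 in WT (SD, n = 3 each; log2 change -2.96, SE 0.41, limma adjusted p = 0.0175, and 0.0202 with the block), and the pseudocount of 1 makes this log2 change smaller than the ratio of the means. Of its 50-base stretches 29.8% occur in other genes, most of them in Cyp4a32, so its level is uncertain. Aldh3a2, the microsomal fatty aldehyde dehydrogenase that completes the omega route (chr11:61223417-61267464, minus strand), was at 24.7, 24.7 and 25.3 in KO, against 50.4, 60.9 and 72.8 in WT. The 3 KO mice were nearly equal, at 24.9 ± 0.328 against 61.4 ± 11.2 in WT (SD, n = 3 each), and the gene fell (log2 change -1.25, SE 0.18, limma adjusted p = 0.0191, and 0.0110 with the block).

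Acyl-CoA thioesterases release free fatty acids or acetate from CoA, and the 3 members differed in how evenly they were lower. Acot2, the mitochondrial enzyme (chr12:83987861-83993873, plus strand), was at 1.66, 2.55 and 1.78 in KO couples 1, 2 and 3, against 5.54, 16.6 and 16.7 in WT, and fell (log2 change -2.09, SE 0.38, limma adjusted p = 0.0397, and 0.0191 with the block). Acot1, its cytosolic paralogue, was at 2.44, 1.11 and 0.995 in KO, against 3.66, 6.24 and 13.6 in WT. The Acot1 groups were separated, yet the log2 difference ranged from -2.87 in couple 3 to -0.44 in couple 1, and the gene was not called (log2 change -1.70, SE 0.42, limma adjusted p = 0.0964, and 0.0670 with the block). Of the 50-base stretches of Acot2, 24.6% also occur in Acot1, so both levels are uncertain. Acot12, the cytosolic acetyl-CoA thioesterase, had the highest mean level of the 3, at 7.10, 17.1 and 13.2 in KO, against 27.9, 23.3 and 34.9 in WT. It was separated between the genotypes and fell with the block (log2 change -1.20, SE 0.31, limma adjusted p = 0.0484).

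Pdk4, the kinase that inhibits pyruvate dehydrogenase and so spares glucose when fat is oxidised, had the largest log2(value + 1) change of all members (chr6:5483351-5496309, minus strand). By the ratio of the group means it was 27.0-fold lower in KO, and Cyp4a10 was 37.1-fold lower. It was at 0.985, 0.719 and 2.48 in KO couples 1, 2 and 3, against 14.5, 26.3 and 72.1 in WT. The log2 differences of -2.97, -3.99 and -4.39 in couples 1, 2 and 3 were larger than the spread among couples, although couple 3 was highest in both genotypes. It fell by 3.78 on the log2 scale (SE 0.54, limma adjusted p = 0.0185, and 0.00834 with the block) and was called in 4 of the 6 fits that left out 1 library. The 250 bases before its RefSeq start are shown because of its large log2 change, with a stretch closest to the motif in capitals (4 mismatches, same strand).
Pdk4, chr6:5496279-5496528, minus strand: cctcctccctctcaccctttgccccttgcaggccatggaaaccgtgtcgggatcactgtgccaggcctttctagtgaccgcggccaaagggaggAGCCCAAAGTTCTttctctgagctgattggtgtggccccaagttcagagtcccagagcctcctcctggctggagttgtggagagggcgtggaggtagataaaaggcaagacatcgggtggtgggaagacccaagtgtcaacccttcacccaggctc

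Ucp2, a carrier of the inner mitochondrial membrane, was at 48.7, 58.3 and 64.7 in KO couples 1, 2 and 3, against 62.9, 97.1 and 90.3 in WT. It was lower in each KO mouse than in its littermate with a small overlap of the groups, and fell with the block (log2 change -0.52, SE 0.23, limma adjusted p = 0.0344).

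**Figure D2:**
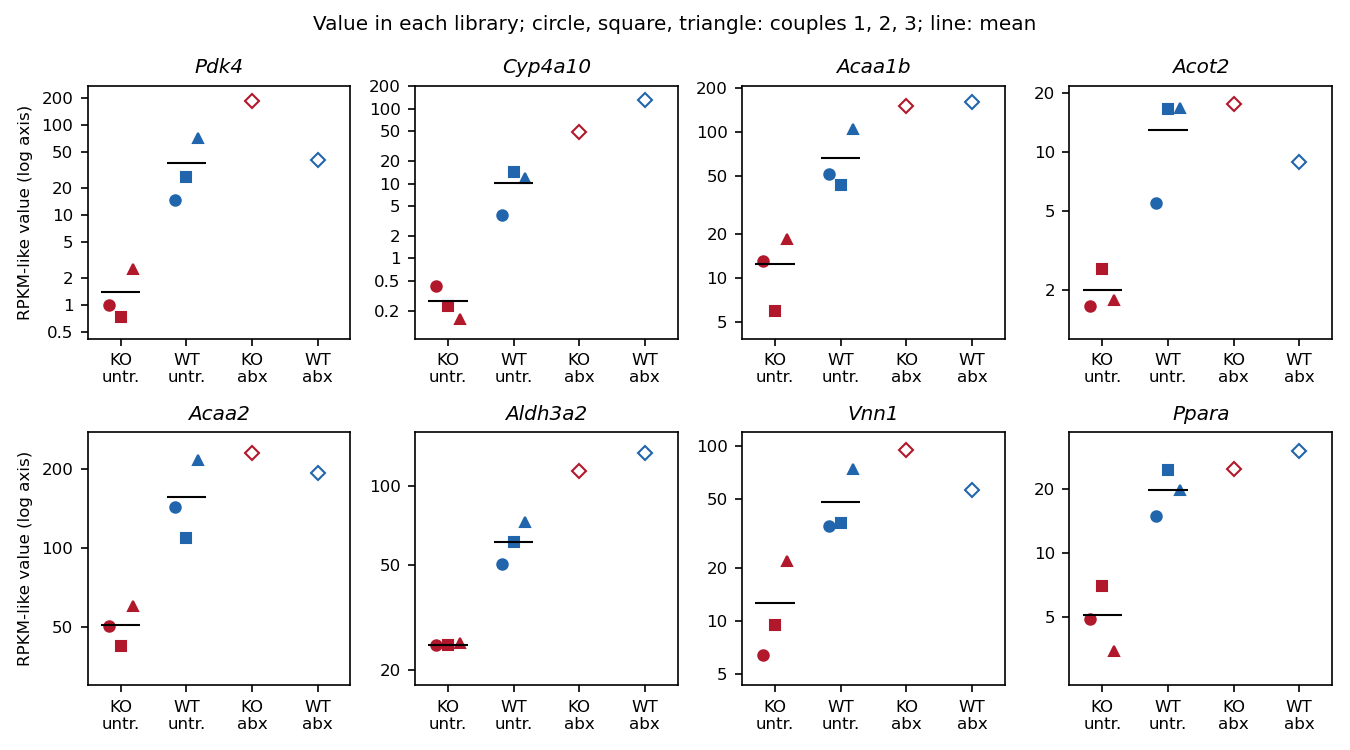
The RPKM-like value of 8 genes is plotted per library on log axes: the 6 members called lower in untreated KO, then the member Vnn1, and Ppara, which is not among the 36 (abx, antibiotic couple; untr., untreated; lines, means of 3 libraries). Pdk4 lies at 0.719 to 2.48 in untreated KO libraries and 14.5 to 72.1 in untreated WT libraries, and at 188 in the antibiotic KO library and 40.5 in its WT littermate.

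Genes of lipid droplets and of lipid hydrolysis were lower by moderate amounts. Plin2, which coats lipid droplets, was at 12.9, 13.9 and 14.3 in KO couples 1, 2 and 3, against 18.4, 27.3 and 29.2 in WT (log2 change -0.80, SE 0.20, limma adjusted p = 0.0253 with the block). Mgll, the lipase that cleaves monoacylglycerol, was at 4.68, 6.02 and 6.46 in KO, against 7.44, 13.7 and 9.61 in WT (log2 change -0.72, SE 0.23, limma adjusted p = 0.0342 with the block). Both were separated between the genotypes. Angptl4, a secreted inhibitor of lipoprotein lipase, was at 2.51, 6.98 and 7.75 in KO, against 4.94, 26.8 and 30.5 in WT. Couple 1 was low in both genotypes, so the groups overlapped. The fall was called with the block only (log2 change -1.47, SE 0.24 with the block and 0.65 without it, limma adjusted p = 0.0268 and 0.331). Cidec, a droplet fusion protein, was at 13.0, 26.1 and 28.2 in KO, against 15.4, 39.1 and 32.1 in WT, and was not called (limma adjusted p = 0.0880 with the block). Adipocytes also express Cidec, Plin2 and Angptl4, and 11 adipocyte markers summed to 81.4, 64.6 and 277 in KO couples 1, 2 and 3, against 115, 207 and 103 in WT. The part of adipocytes in these differences was not tested.

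Creb3l3, a membrane-bound transcription factor of intestine and liver, had the highest mean level of the 36 genes. It was at 75.7, 103 and 143 in KO couples 1, 2 and 3, against 131, 158 and 224 in WT, lower in each couple with overlapping groups. It fell with the block only (log2 change -0.68, SE 0.080 with the block and 0.31 without it, limma adjusted p = 0.0164 and 0.336). Vnn1, a pantetheinase that releases cysteamine and a classical PPARA target, was at 6.42, 9.52 and 22.1 in KO, against 34.8, 36.1 and 73.4 in WT. No KO library reached the WT range. Vnn1 had the lowest limma adjusted p of the members with the block (0.00692, against 0.0902 without it). Its log2 change was -1.93 (SE 0.13 with the block and 0.45 without it).

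Of the 6 members called without the block, only Pdk4 was called in more than 1 of the 6 fits that left out 1 library. Acaa2, Aldh3a2 and Acot2 were called in 1 fit each and Acaa1b and Cyp4a10 in 0, with Cyp4a10 below the filter in 3 of them. The log2 changes stayed between -4.29 and -3.17 for Pdk4, between -2.67 and -1.92 for Acaa1b, and between -1.38 and -1.12 for Aldh3a2. The number of members called lower was 0 without the KO library of couple 1 or of couple 2, 1 without the WT library of couple 3, 2 without the WT library of couple 2 or the KO library of couple 3, and 3 without the WT library of couple 1.

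The mitochondrial and peroxisomal members shared a similar size of difference. The median log2 differences within couples 1, 2 and 3 were -0.51, -0.58 and -0.70 over the 14 members of mitochondrial beta-oxidation and the carnitine shuttle and -0.67, -0.63 and -0.79 over the 4 peroxisomal members, beside -0.02, 0.00 and -0.03 over all genes tested. These medians describe the lists, and the difference between lists was not tested. The 2 ketone body genes set beside them were not called with the block or without it. Bdh1, which interconverts the main ketone bodies, was at 27.0, 30.9 and 26.9 in KO couples 1, 2 and 3, against 25.4, 28.2 and 28.8 in WT. Acat1, the mitochondrial acetoacetyl-CoA thiolase, was at 26.1, 25.8 and 26.8 in KO, against 28.3, 25.8 and 29.0 in WT. The groups overlapped for both genes, whose log2 changes were 0.04 (SE 0.15) for Bdh1 and -0.07 (SE 0.15) for Acat1.

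**Figure D3:**
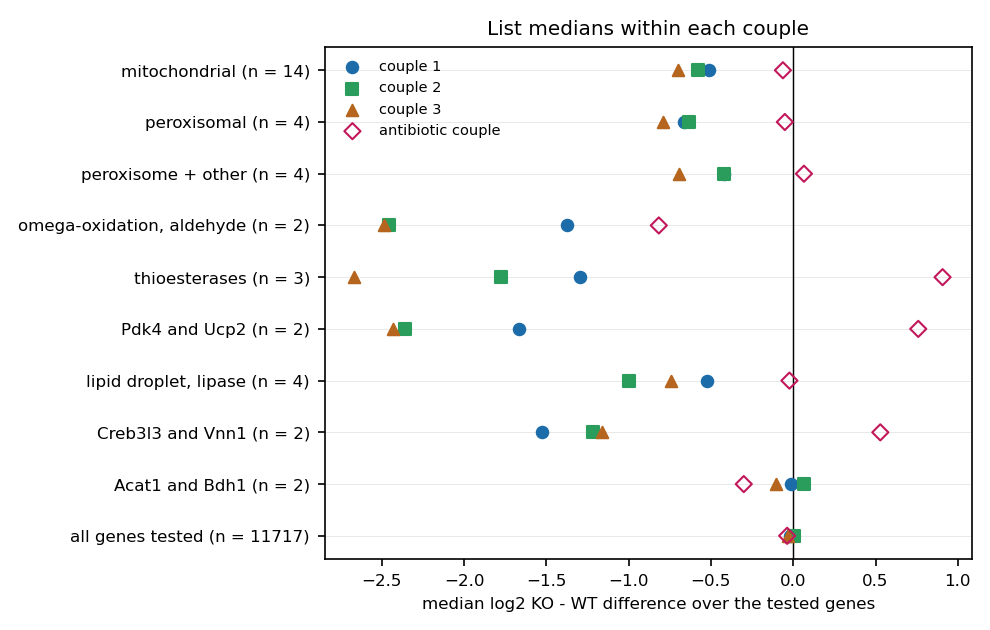
Median log2 KO - WT difference over the tested genes of each list (y axis, with their number) within the 3 untreated couples (filled) and the antibiotic couple (open). The filled symbols of all 8 member lists lie left of 0, and those of the pair Acat1 and Bdh1 lie at -0.02, 0.06 and -0.10, beside -0.02, 0.00 and -0.03 for all 11717 genes.

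Of 105 tested pathway genes outside the 36, 76 were fitted below 0 (6052 of all 11717 genes), and the receptor gene itself was among those called. Ppara, which encodes the receptor, was at 4.89, 7.04 and 3.48 in KO couples 1, 2 and 3, against 15.0, 24.5 and 19.9 in WT. Its groups were far apart and it fell (log2 change -1.78, SE 0.26, limma adjusted p = 0.0191, and 0.0116 with the block), with 3 of 6 fits without 1 library still calling it. It was the only one of 13 tested receptor and cofactor genes called without the block, and with the block 4 were lower and 1 was higher. Among 44 other peroxisomal genes 4 fell and 0 rose without the block (13 and 1 with it), with a median log2 change of -0.20. These were Hsd17b4, the bifunctional enzyme for branched chains (-1.70, limma adjusted p = 0.00644), Cat, the catalase that removes the hydrogen peroxide of the cycle (-1.84, 0.0195), Acot4, a peroxisomal thioesterase (-1.38, 0.0383), and Abcd3, a transporter of acyl-CoA into peroxisomes (-1.30, 0.04996). Hsd17b4 was at 21.4, 20.7 and 23.1 in KO, against 64.9, 67.6 and 88.4 in WT, and was called in all 6 fits that left out 1 library, while Abcd3 was called in 0, Acot4 in 1 and Cat in 2. Of 20 other mitochondrial fatty acid genes 0 were called without the block and 3 were lower with it, with a median of -0.03, and of 24 further PPAR targets 0 were called without the block and 11 were lower with it, with a median of -0.50. Over all 105, 31 (29.5%) were called lower and 3 higher with the block, where 9.91% of all genes were called lower and 8.4% higher. The 3 lower of the 20 other mitochondrial genes are 15.0%. Without the block, 5 of the 105 (4.76%) were called lower and 0 higher, where 1.01% of all genes were called lower and 1.15% higher.

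With antibiotics, most members were near equal in the KO mouse and its WT littermate. There was 1 library a genotype, so these differences have no replicate check. Of 35 members, 15 were higher in KO and 20 lower (43.2% of the 11534 genes compared were higher in KO), with a median log2 difference of -0.04, beside -0.04 over all genes. On the log2(value + 1) scale, at least 2-fold higher in KO were 2 members (3.3% of all genes), Pdk4 and Acot1, and at least 2-fold lower was 1 (0.962% of all genes), Cyp4a10. Pdk4 was at 188 in the antibiotic KO mouse, against 40.5 in its WT littermate, and Acot1 at 19.2 in KO, against 5.85 in WT. Cyp4a10 kept the untreated order, at 48.9 in KO, against 131 in WT. Slc27a2 was at 49.2 in KO, against 25.4 in WT, and Acot2 at 17.5 in KO, against 8.87 in WT, with log2(value + 1) differences of 0.93 and 0.91. Mgll was at 6.02 in KO, against 12.1 in WT (a KO over WT ratio of 0.497), and Eci1 at 35.4 in KO, against 59.0 in WT, so that these genes were lower in KO with antibiotics too.

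By role, the mitochondrial members had a median log2 difference of -0.06 in the antibiotic couple, with 4 of 14 higher in KO, and the peroxisomal members one of -0.05, with 1 of 4 higher. The 3 thioesterases were all higher in KO (median 0.91), as were Creb3l3 (261 in KO, against 210.4 in WT) and Vnn1 (94.9 in KO, against 56.1 in WT). Acat1 and Bdh1 were lower in KO (log2 differences -0.25 and -0.36). Ppara was at 24.9 in KO, against 30.1 in WT. In 15 members KO was below WT in all 3 untreated couples and above it in the antibiotic couple, which held for 11.5% of all genes. The untreated part was met by 33 of 35 members and by 32.5% of all genes. The antibiotic part was met by 15 of 35 members and by 43.2% of all genes. The contrast with 11.5% therefore comes from the untreated part and shows no separate reversal of the members.

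Levels with and without antibiotics were set side by side, since the antibiotic couple was a separate set. The antibiotic KO library was above all 3 untreated KO libraries in 31 of 35 members (19.9% of all genes) and below them in 0 (40.6% of all genes). The antibiotic WT library was above all 3 untreated WT libraries in 15 members (10.4% of all genes) and below them in 1, Cpt1a (39.7% of all genes). In 15 members the antibiotic KO library was above the highest untreated WT library (12.9% of all genes). Acaa1b was at 151 in the antibiotic KO mouse, against 5.88 to 18.3 in untreated KO mice, and at 159 in the antibiotic WT mouse, against 43.1 to 104 in untreated WT mice. Cyp4a10 was at 48.9 in the antibiotic KO mouse, against 0.154 to 0.425 in untreated KO mice, and at 131 in the antibiotic WT mouse, against 3.79 to 14.4 in untreated WT mice. Aldh3a2 was at 114 in the antibiotic KO mouse, against 24.7 to 25.3 in untreated KO mice, and at 133 in the antibiotic WT mouse, against 50.4 to 72.8 in untreated WT mice. These 3 genes were high in both antibiotic mice, whereas Pdk4, Acot1 and Acot2 were within the untreated range in the antibiotic WT mouse and above it in the antibiotic KO mouse. Villus enterocyte markers summed to 30032 in the antibiotic KO mouse, against 9005 to 16205 in untreated KO mice, and to 25195.5 in the antibiotic WT mouse, against 17178 to 23907 in untreated WT mice. Distal ileal enterocyte markers summed to 700.0 in the antibiotic KO mouse, below the untreated KO range of 1064 to 2908, and to 5383 in the antibiotic WT mouse, below the untreated WT range of 5741 to 7712. T cell markers summed to 40.0 in the antibiotic KO mouse, against 55.2 to 64.3 in untreated KO mice, and to 6.26 in the antibiotic WT mouse, against 21.0 to 28.1 in untreated WT mice. The part of these lists in the members' levels was not tested. Treatment coincides with a single couple and a separate normalisation, and the 3 cannot be told apart.

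The difference between the genotype effects was tested as an interaction over all 8 libraries, in which the lone antibiotic libraries are assumed to vary like the untreated ones. It was above 0 in 30 of 35 members (5761 of all 11534 genes), meaning that KO over WT was higher with antibiotics, with a median of 0.68 beside 0.00 over all genes. The interaction is the antibiotic difference minus the untreated one. In the antibiotic couple the median was -0.04 over the members and -0.04 over all genes. The median of 0.68 and the counts of members in this paragraph thus mostly restate the untreated difference. Limma called 0 members and 0 of 11534 genes at an adjusted p under 0.05, with the block or without it (0.0% in each direction). At an unadjusted p under 0.05, 10 members were higher and 0 lower without the block (2.02% and 2.16% of all genes), and 23 were higher and 0 lower with it (7.33% and 8.71%). On simulated data of the same size this test without the block recovered 0% of genes changed by 2 log2 units. Larger changes and the test with the block were not simulated. The largest interaction was that of Pdk4 (5.97, SE 1.09, limma adjusted p = 0.368, and 0.0863 with the block), followed by Acot1 (3.25, SE 0.83), Acot2 (3.00, SE 0.76), Vnn1 (2.67, SE 0.91) and Acaa1b (2.27, SE 0.90). Acaa2 followed at 1.82 (SE 0.58), Angptl4 at 1.74 (SE 1.31) and Slc27a2 at 1.73 (SE 0.44), and the 5 members below 0 were Decr1, Eci1, Mgll, Ucp2 and Ech1, between -0.58 and -0.09.

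**Figure D4:**
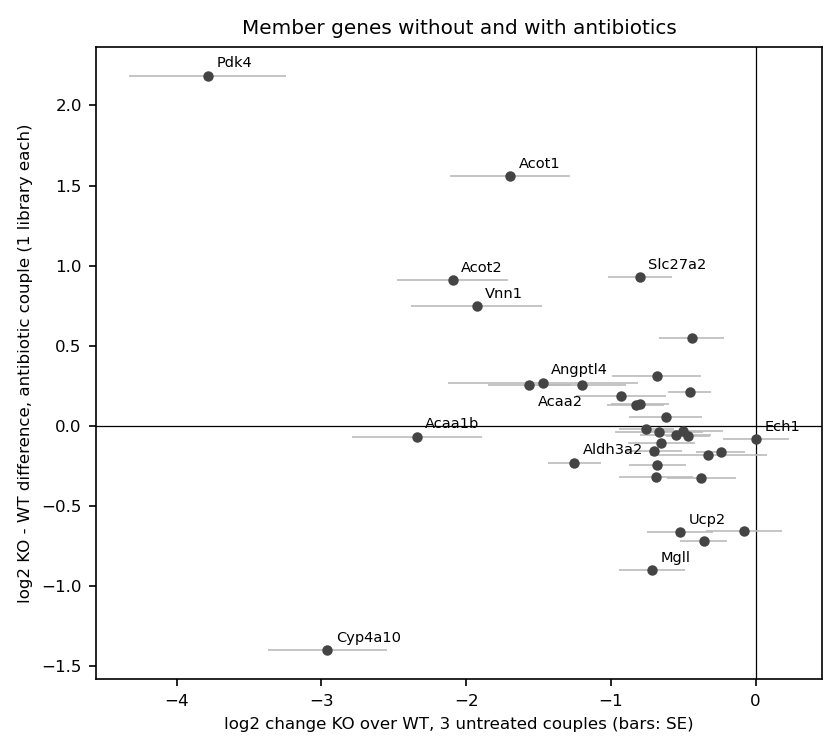
Log2 change of KO over WT in the 3 untreated couples (x axis, bars are SE) against the log2 KO - WT difference in the antibiotic couple (y axis, 1 library a genotype) for 35 members. Pdk4 lies at -3.78 and 2.19 and Cyp4a10 at -2.96 and -1.40, and 15 genes lie above 0 on the y axis.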

How the data were processed

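Whole-tissue ileum RNA was enriched for polyadenylated RNA and sequenced on a HiSeq 2000 or an Ion Proton, per the labels' protocols. Reads were mapped to GRCm38 (release 76) with CLC Genomics Workbench 7.5, per the series' design text. The authors deposited 1 normalised value per gene and library, taken here as RPKM from its range because no source names the unit, and no counts. The sorted values of couples 1 and 2 are identical, so these 4 libraries had been brought to 1 distribution before deposit, and depth is unknown. Limma 3.58.1 (R 4.3.3, trend) was run on log2(value + 1), which understates changes of low genes, over genes that reached 1 in 3 or more libraries, with Benjamini-Hochberg adjustment over all of them and a threshold of 0.05. The main comparison had no block and pooled couples across the normalisation sets. SE values are from fits without the block unless stated. Labels name the couples as littermates, and deviations of littermates from their group means correlated at 0.62, 0.64 and 0.51 (between -0.51 and -0.06 across couples), so values with the couple as a block are printed where they change a call. Deviations from a group mean sum to 0, so values above 0 within couples bring values below 0 across them. Couple 3 was also normalised apart, and the part of this in its correlation was not tested. Antibiotic comparisons left out 405 genes with faulty values in the WT antibiotic library (358 tied, 45 at 0, 40 far below the others, some with more than 1 fault), none of them a member, and called means at least 2-fold there on the log2(value + 1) scale, as in all counts of 2-fold differences. The fits without the block were tested on simulated data: the untreated comparison of 11717 genes recovered 37% of changes of 1 log2 unit and 89% of changes of 2. Fits with the block were not simulated. Positions are from GENCODE on GRCm38 and promoters from RefSeq on GRCm38.p6. Values in the 6 untreated libraries are given for members called with or without the block and for the member of highest mean in each role. Of other genes, those called without the block, Ppara, Acat1 and Bdh1 are named. Some genes of the lists are not reported here. Members and lists were chosen with earlier results of these data known. Alternatives were another pseudocount, filter, scaling or variance model, and leaving out libraries or couples.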

Additional observations from a re-analysis of the deposited data

How the results depend on the processing

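The number of members called lower (6) was 5 with a pseudocount of 0.1, 4 after median centring and 6 with a filter on the mean, joint quantile scaling or no variance trend. It was 0 with no filter on low values, where 4 genes of all were called lower and 7 higher, and 27 with the replicate block, where all genes gave 1161 lower and 984 higher, against 118 and 135. Leaving out libraries or couples gave 0 to 14: 0 to 3 without 1 library, 0 without a couple, and 6 to 14 without a couple but with the block. The block changed no call for Acadm, Eci1, Decr1, Pex11a, Ech1, Slc27a2, Acot1 and Cidec. Directions turned only when libraries were left out. The untreated log2 change then lay between -0.34 and 0.092 for Decr1 (0.065 without couple 1, with the block), -0.12 and 0.20 for Ech1 (-0.068 without couple 2 and -0.0027 without couple 3, with the block), -0.71 and 0.011 for Cidec, and -0.025 and 0.11 for Bdh1 (-0.0053 without couple 2, with the block). The interaction lay between -0.0030 and 0.14 for Acadm, -0.085 and 0.21 for Acadl, -0.28 and 0.035 for Ech1, -0.27 and 0.042 for Ucp2, -0.19 and 0.53 for Cidec, and -0.40 and 0.0039 for Mgll. The cause was not tested. The interaction without a couple but with the block was added after the data were seen. The counts for the antibiotic couple were the same under every alternative run. The median over all members stayed between -0.70 and -0.68 under the 5 alternatives of scale, filter and pseudocount. Neither depth nor more than 1 antibiotic couple was at hand.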

Other observations

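Some PPAR targets and ketone genes outside the 36 are given here as values, chosen after their values were seen. Fabp1, the liver-type fatty acid binding protein, was at 161, 108 and 146 in KO couples 1, 2 and 3, against 601, 223 and 608 in WT, and fell with the couple as a block (log2 change -1.66, limma adjusted p = 0.0191, and 0.104 without it). With antibiotics it was at 1442 in KO, against 1300.5 in WT, which put both mice above every untreated library. Cd36, a fatty acid transporter, overlapped between the genotypes without antibiotics, at 11.0, 4.78 and 14.4 in KO, against 12.1, 7.38 and 12.1 in WT. It was at 216 in the antibiotic KO mouse, against 74.3 in its WT littermate. Oxct1, which activates ketone bodies for oxidation, ran the other way from the oxidation genes, at 77.5, 53.9 and 88.4 in KO, against 39.2, 34.7 and 38.6 in WT. It rose with the block (log2 change 0.92, SE 0.22, limma adjusted p = 0.0201, and 0.0930 without it) and was at 17.0 in the antibiotic KO mouse, against 28.4 in its WT littermate.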
